A study of Mus musculus with 16 samples.

Results

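The Myc, Max and Mxd network was taken as 10 mouse genes, chosen by symbol from their textbook roles with earlier results of these data known. They were Mycn and Myc, their partner Max, the Max partners Mxd1, Mxd3, Mxd4, Mxi1, Mnt and Mga, and Mlx. All 10 were found among the 24411 genes of the tables, and all 10 were among the 16665 genes that passed a filter on low counts. RNA-Seq was performed on 16 libraries in 5 groups, from mice that carry human MYCN under the tyrosine hydroxylase (Th) promoter, which drives the transgene in neuroectodermal cells and gives rise to neuroblastoma, and from transgene-free mice. Celiac ganglia, sympathetic ganglia of the abdomen, came from mice aged 2 weeks and made up 12 of the libraries. They comprised 4 transgene-free ganglia with wild-type Runx1t1 (wild-type ganglia), 3 transgene-free ganglia labelled heterozygous for Runx1t1, 3 ganglia homozygous for the transgene with wild-type Runx1t1 (MYCN ganglia) and 2 ganglia homozygous for the transgene and labelled heterozygous for Runx1t1. The last group was 4 tumors, homozygous for the transgene and wild-type for Runx1t1, whose age the labels do not give. Runx1t1 heterozygotes carry 1 allele inactivated by an insertion (Runx1t1tm1Fc), and the study used both sexes. The human transgene has no row in the tables, and Mycn is the row of the mouse gene throughout. Reads were mapped to the mouse genome, and whether reads of the transgene entered the Mycn row was not tested. Whether replicates came from separate mice is not stated, so p-values measure the spread between these samples, which may be technical.

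Libraries held from 10692299 to 38618757 counts, with 6 ganglion libraries under 20000000 and the other 10 libraries, all tumors included, above it. Among ganglia, the libraries under it were those numbered replicate 1 or 2, and those above it replicate 3 or 4. Depth and replicate number therefore cannot be told apart among ganglia, and checks on them are not independent there. Runx1t1 RNA did not separate the labels: it ran from 2.78 to 4.41 TPM (transcripts scaled by length and library size) in wild-type ganglia and from 4.36 to 6.28 in those labelled heterozygous, and from 7.90 to 70.3 in MYCN ganglia and 8.83 to 16.9 in those labelled heterozygous. An insertion need not remove RNA, and the word "labelled" is kept for both groups. In wild-type ganglia replicate 2, summed TPM of 8 lymphocyte markers was 923, against 3.61 to 25.5 in all other libraries, and summed TPM of 7 myeloid markers was 2127, against 62.9 to 155 in the other 3 wild-type ganglia and 323 to 1011 in tumors. Of these 7 markers, 1 was higher in tumors than in wild-type ganglia, 5 without that library and 0 without tumor replicate 3. Of all genes, 27%, 29.1% and 25.5% were higher in these settings, in that order. In tumor replicate 3, summed TPM of 4 liver markers was 6511. Sympathetic neuron markers (15 genes) summed to 9238 to 25065 TPM in wild-type ganglia and 4259 to 8767 TPM in tumors, with 3 members higher and 9 lower in tumors. Of all genes tested, 27% were higher and 30.7% lower in this comparison. Glial markers summed to 4513 to 7902 TPM in wild-type ganglia and 941 to 3992 TPM in tumors (8 of 9 lower), and fibroblast markers to 1884 to 7899 TPM and 171 to 506 TPM (6 of 6 lower). Endothelial markers summed to 43.4 to 463 TPM in wild-type ganglia and 30.4 to 75.9 TPM in tumors (3 of 5 lower). Without wild-type ganglia replicate 2, 2 of 5 were lower, where 29.6% of all genes were. No marker of these lists was at 0 in every library of either group. Against MYCN ganglia, 8 of 15 neuron, 8 of 9 glial and 6 of 6 fibroblast markers were lower in tumors. Of all genes, 20.5% were lower and 14% higher there, and 0 of 5 endothelial and 0 of 7 myeloid markers passed the threshold. Without wild-type ganglia replicate 2, 3 of 7 myeloid markers were higher, where 17.9% of all genes were. The part of these cell types in the results was not tested. In bulk tissue, fewer cells of a type and less RNA per cell cannot be told apart.

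Myc and MycN are transcription factors that pair with Max through a helix-loop-helix and leucine zipper domain, bind the E-box of their target genes and raise transcription. The Mxd proteins, Mnt and Mga pair with the same Max and bind the same E-boxes, where Mxd and Mnt recruit the Sin3 corepressor and histone deacetylases and Mga joins a Polycomb-type repressor complex. Mlx is a Max-like protein that pairs with the glucose-responsive factors Mlxip and Mlxipl and with some of the Mxd proteins. In neuroblastoma, amplified MYCN is the classical driver, and MYC and MYCN can lower each other's transcription.

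Promoter windows from 250 bases before to 50 bases after the gene start were held by the RefSeq promoter table (build GRCm38.p6) for 9 of the 10 genes, in 11 windows. The letters CACGTG, the E-box that Myc and Max bind, were searched because they are the network's own site. They read the same on both strands, and they were present in the windows of 4 genes, Max, Mxd4, Mnt and Mlx, against 7.15% of all 32851 windows of this length. The 30 bases around each match are shown on the strand of the gene, 5′ to 3′, with the E-box in capitals.
Max: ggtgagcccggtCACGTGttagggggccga
Mxd4: gggctgggccacCACGTGctgttgctaagc
Mnt: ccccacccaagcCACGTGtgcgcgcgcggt
Mlx: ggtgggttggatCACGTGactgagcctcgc
The stretches lie at chr12:76962234-76962263 (minus strand) for Max, chr5:34187912-34187941 (minus strand) for Mxd4, chr11:74830789-74830818 (plus strand) for Mnt and chr11:101087238-101087267 (plus strand) for Mlx. Counted from the start in the RefSeq table, the E-box of Max spans −3 to 3, that of Mlx −40 to −35, that of Mnt −123 to −118 and that of Mxd4 −219 to −214. The coordinates given for the genes are from GENCODE, whose starts differ from these by 47, 13, 4 and 10 bases in that order, and from the GENCODE starts the E-boxes span −50 to −45, −27 to −22, −119 to −114 and −209 to −204. The E2F-type letters TTTNNCGC, searched on both strands, were present in the window of Mycn only, against 5.17% of all windows. Its stretch is shown because it holds 3 matches, 2 of them overlapping on opposite strands, in capitals.
Mycn: ggctTTTGGCGCGAAAggcTTTGGCGCctc
This stretch lies at chr12:12941994-12942023 (minus strand), and its capitals span −183 to −161 from the RefSeq start and −105 to −83 from the GENCODE start. A match describes letters and is not evidence of binding.

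In wild-type ganglia, Mxd4 had the highest mean level of the network, 74.9 ± 32.1 TPM (SD, n = 4), a scale that corrects for gene length. Max followed with 57.1 ± 3.38 and Mycn with 46.3 ± 17.7 TPM. Mnt (29.1), Mxi1 (26.4), Mlx (25.4), Mga (24.6) and Myc (24.3) stood close together, and all neighbours in this order overlapped in their ranges as far as Mxd1. Mxd1 had 12.5 ± 4.92 TPM and lay above Mxd3, the lowest, at 4.10 ± 1.93 TPM, without overlap. In tumors the order was Max (66.6 ± 2.38 TPM), Mxd3 (58.4 ± 9.16), Mxi1 (49.5 ± 4.03), Mga (39.4 ± 2.79), Mnt (33.9 ± 7.09), Mxd4 (25.2 ± 5.0), Mycn (16.7 ± 13.3), Mlx (16.5 ± 2.55), Mxd1 (8.10 ± 2.97) and Myc (2.85 ± 1.08). In tumors, ranges did not overlap between Mxi1 and Mga, between Mlx and Mxd1 or between Mxd1 and Myc. Mxd3 therefore went from the last place to the second, and Myc from the eighth to the last. Among the 14747 genes with a mean of at least 1 TPM, Mxd3 lay above 15.3% in wild-type ganglia and above 83.0% in tumors, whereas Myc lay above 53.9% and 20.6%.

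**Figure D1:**
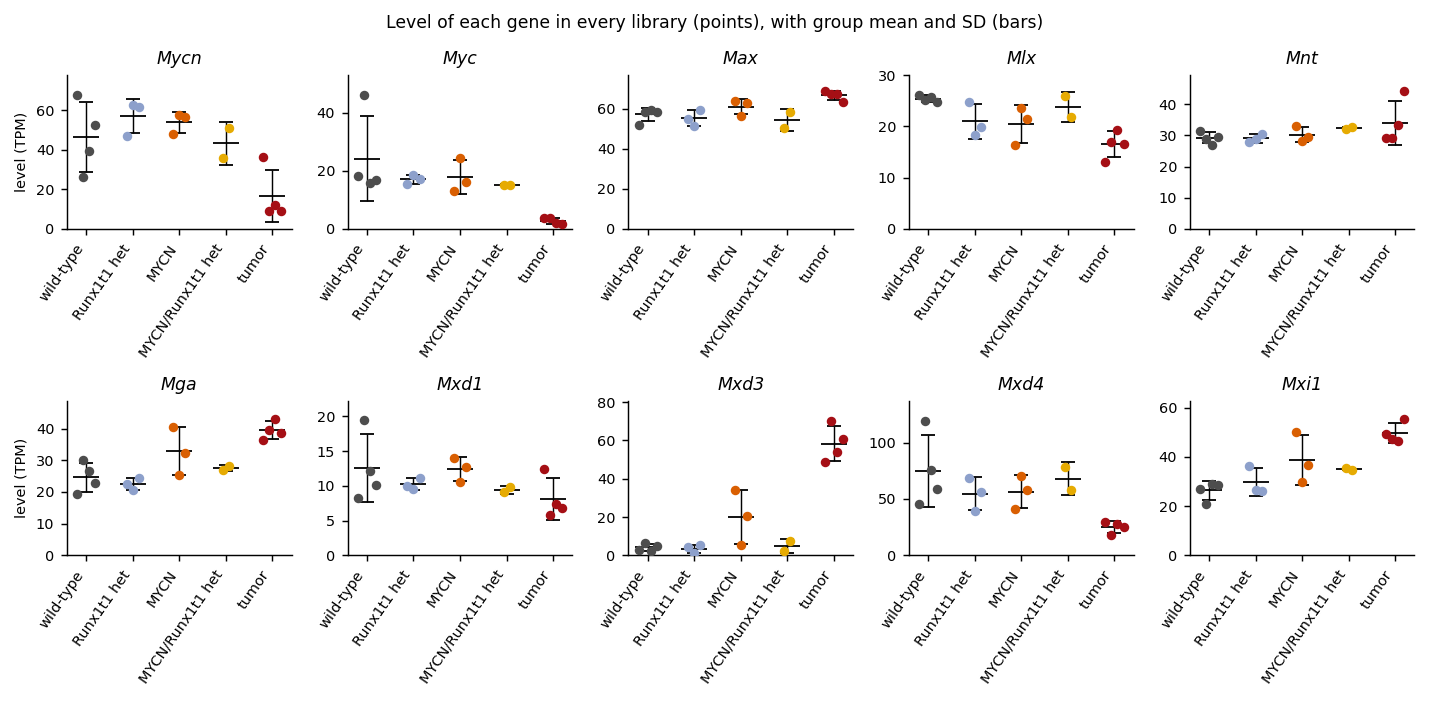
Level of each of the 10 genes in TPM (vertical axis, linear, from 0) in every library (points) of the 5 groups, with the group mean and SD as bars. Mxd3 ran from 48.8 to 69.9 TPM in tumors and from 2.16 to 6.52 TPM in wild-type ganglia, while Myc ran from 1.79 to 3.83 TPM in tumors and from 15.8 to 46.2 TPM in wild-type ganglia.

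The comparison of tumors with wild-type ganglia, both with wild-type Runx1t1, asked which genes of the network differ in established disease. With edgeR's quasi-likelihood test and adjustment over all genes, 8 of 10 were past the threshold of 0.05, where 57.7% of all genes tested were. Mxd3, Mxi1, Mga, Max and Mnt were higher (5 of 10; all genes, 27% higher) and Myc, Mxd4 and Mycn were lower (3 of 10; all genes, 30.7% lower). The median log2 fold change of the 10 genes was 0.21, and that of all genes −0.11. In CPM, counts scaled by TMM and library size, groups did not overlap for 7 of the 10, all those past the threshold but Mycn, against 46.8% of all genes. Among the libraries above 20000000 counts (4 tumors and 2 wild-type ganglia), the difference in mean log2(CPM + 1) was 3.90 for Mxd3 (3.72 over all libraries). It was −1.84 for Myc (−2.28), 1.24 for Mxi1 (1.33), 1.13 for Mga (1.1), −0.91 for Mxd4 (−1.02) and −1.20 for Mycn (−1.19). No tumor lay under that depth.

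**Figure D2:**
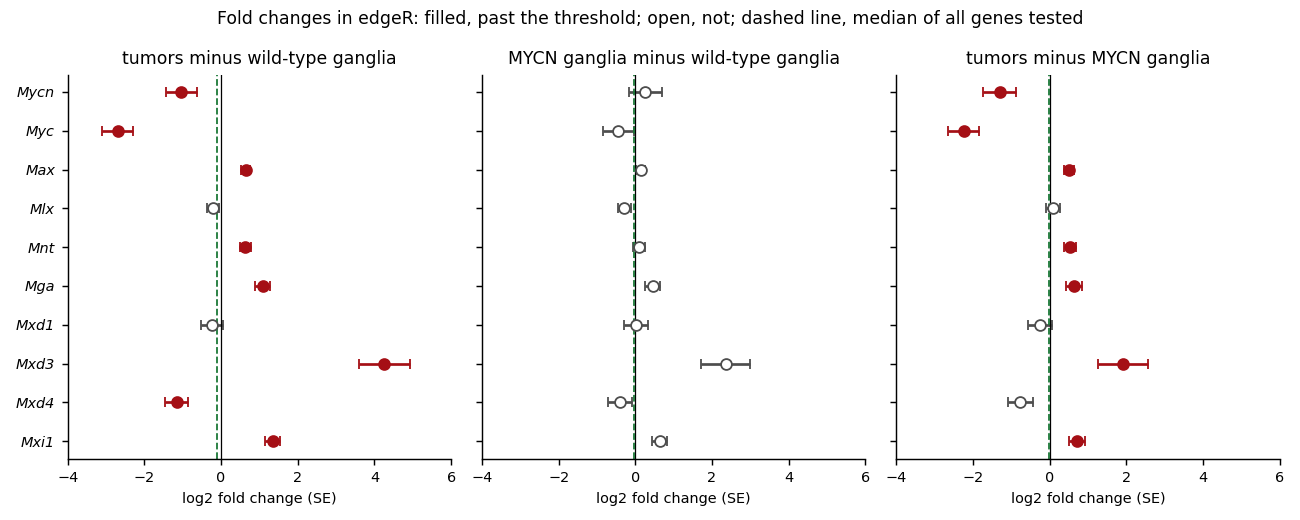
Log2 fold change from edgeR (horizontal axis, bars are the SE) of the 10 genes in 3 comparisons, with filled points past an adjusted p of 0.05 and a dashed line at the median of all genes tested. Mxd3 was at 4.26 between tumors and wild-type ganglia, 2.35 (not past the threshold) between MYCN and wild-type ganglia and 1.91 between tumors and MYCN ganglia; Max and Mnt pass the threshold in both tumor comparisons on counts but not on the TPM scale, and so do Mxi1 and Mga against MYCN ganglia.

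Both Myc genes were lower in tumors, Mycn by a call that depended on single libraries. Myc (chr15:61985391-61990374, plus strand, GRCm38) had 18.3, 46.2, 15.8 and 16.9 TPM in wild-type ganglia replicates 1 to 4 and 3.83, 3.72, 2.05 and 1.79 TPM in the tumors. The lowest ganglion was thus above the highest tumor, and wild-type ganglia replicate 2, the library with immune markers, stood far above the rest. The log2 fold change was −2.69 (SE 0.400, adjusted p = 8.52e-05), and without that replicate it was −2.11 and still past the threshold. Ganglia of the other 3 groups held between 12.97 and 24.5 TPM of Myc.

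Mycn, the mouse counterpart of the transgene (chr12:12936093-12941914, minus strand), had 67.6, 26.2, 39.3 and 52.2 TPM in wild-type ganglia and 36.5, 8.90, 12.0 and 9.30 TPM in tumors. Tumor replicate 1 stood within the range of the ganglia and the other 3 tumors below it, so that the groups overlapped. Its log2 fold change was −1.04 (SE 0.405, adjusted p = 0.0400). This call was lost in 9 of 25 alternatives, among them leaving out wild-type ganglia replicate 1 (−0.80, adjusted p = 0.120), wild-type ganglia replicate 4 (adjusted p = 0.0751), tumor replicate 2 (0.104), tumor replicate 3 (0.0984), tumor replicate 4 (0.106), or, with the fold change as before, MYCN ganglia replicate 4 (0.0504) or replicate 4 of the transgene-free ganglia labelled heterozygous (0.0501). Leaving out tumor replicate 1 gave −1.77 (adjusted p = 0.000125). That tumor had 8767 TPM of sympathetic neuron markers, against 4259 to 4789 in the other 3, and its part in the Mycn level was not tested. In ganglia of the other 3 groups, Mycn ran from 35.7 to 62.5 TPM, and MYCN ganglia (47.8, 57.4 and 56.4 TPM) lay within the range of wild-type ganglia. Of the genes next to Mycn on the chromosome, in tumors Ddx1 was higher by 1.00 (adjusted p = 8.58e-05), while Fam49a was at −0.85 and Nbas at −0.44, both past the threshold.

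Max and Mlx, the common partners, had small differences, and the call for both depended on the scale. Max (chr12:76937269-76962201, minus strand) had 52.1, 58.5, 59.5 and 58.3 TPM in wild-type ganglia and 68.7, 67.1, 67.4 and 63.2 TPM in tumors, without overlap. Over all 16 libraries Max stayed between 50.5 and 68.7 TPM. Its log2 fold change was 0.64 (SE 0.117, adjusted p = 0.000384) on counts, and 0.22 (SE 0.0924, adjusted p = 0.0553 in limma) on log2(TPM + 1), where it was not past the threshold. Mlx (chr11:101087277-101092207, plus strand) had 26.1, 25.2, 25.8 and 24.7 TPM in wild-type ganglia and 13.15, 16.9, 19.4 and 16.6 TPM in tumors, and was at −0.21 (adjusted p = 0.281) on counts and −0.61 (adjusted p = 0.00384) on the TPM scale. Mlx overlaps by 385 bases with Psmc3ip on the opposite strand. Psmc3ip had 7.17 ± 3.72 TPM in wild-type ganglia and 88.0 ± 19.0 TPM in tumors (SD, n = 4 each). The library kit was stranded, but the sources do not say whether counting used the strand. RSEM, which quantified the genes, gave Mlx a fractional count in 0 libraries. The part of this stretch in the Mlx level was not tested.

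TPM and CPM were not offset alike in all groups. Over 8907 well-expressed genes, the median log2 ratio of TPM to CPM was −0.76 in tumors and −0.27 to −0.38 in the ganglion groups, and the ribosomal RNA gene Rn45s took 8.57% to 12.8% of counts in tumors and 2.15% to 8.80% in ganglia. The median of all genes moved from −0.11 on counts to −0.36 on the TPM scale, and the split of calls from 27% higher and 30.7% lower to 17.7% higher and 39.6% lower. Relative to these medians, Max was at 0.76 on counts and 0.58 on TPM, Mnt at 0.75 and 0.55, and Mlx at −0.09 and −0.24. On the TPM scale 7 of the 10 genes were past the threshold (57.3% of all genes), namely Mycn (−1.58), Myc (−2.62), Mxd3 (3.61), Mxd4 (−1.47), Mxi1 (0.89), Mga (0.67) and Mlx. The pseudocount of 1 understates changes of low genes.

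**Figure D3:**
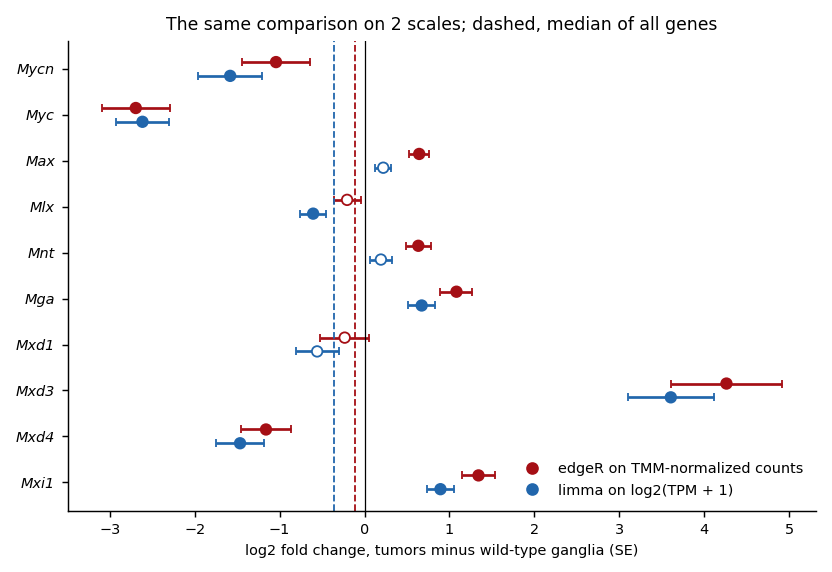
Log2 fold change between tumors and wild-type ganglia (horizontal axis, bars are the SE) of the 10 genes on TMM-normalized counts and on log2(TPM + 1), with filled points past an adjusted p of 0.05 and dashed lines at the median of all genes on each scale. Mxd3, Mxi1, Mga, Myc, Mxd4 and Mycn are filled on both scales; Max (0.64 and 0.22) and Mnt (0.63 and 0.19) are filled on counts only and Mlx (−0.21 and −0.61) on TPM only.

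Of the large Max partners, Mga was higher in tumors on both scales and Mnt on counts only. Mga, which scaffolds the variant Polycomb complex and carries a T-box besides its Max-binding domain (chr2:119897228-119969581, plus strand), had 19.3, 29.98, 26.5 and 22.9 TPM in wild-type ganglia and 36.4, 39.6, 43.1 and 38.6 TPM in tumors. Every tumor was above every wild-type ganglion, and the log2 fold change was 1.08 (SE 0.189, adjusted p = 0.000281). Mnt, a broadly expressed antagonist of Myc (chr11:74830920-74845725, plus strand), had 31.3, 28.8, 27.0 and 29.4 TPM in wild-type ganglia and 29.0, 29.1, 33.4 and 44.1 TPM in tumors. In TPM the groups overlapped, and only tumor replicate 4 stood well above the ganglia. Mnt was at 0.63 (SE 0.148, adjusted p = 0.00236) on counts and 0.19 (adjusted p = 0.223) on the TPM scale.

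Within the Mxd family, which marks cells that leave the cycle and mature with the exception of Mxd3, the genes went in opposite directions. Mxd3, known to be expressed in S phase of proliferating progenitors (chr13:55325168-55329823, minus strand), had 3.01, 6.52, 2.16 and 4.72 TPM in wild-type ganglia and 48.8, 69.9, 53.8 and 60.9 TPM in tumors. No ganglion of any group reached the lowest tumor. The log2 fold change was 4.26 (SE 0.658, adjusted p = 0.000113), a 19.2-fold difference, and it ran from 3.61 to 4.69 over 25 alternatives. It was 4.61 without wild-type ganglia replicate 2. RSEM gave Mxd3 a fractional count in 4 libraries, and none of the other 9 genes one in any library. Mxd3 overlaps by 105 bases with Prelid1 on the opposite strand, which had 324 ± 47.2 TPM in wild-type ganglia and 277 ± 14.2 TPM in tumors (SD, n = 4 each).

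Between tumors and wild-type ganglia, cell cycle genes moved with Mxd3. Summed TPM of 10 cell cycle genes was 1530 to 1799 in tumors and 85.0 to 335 in wild-type ganglia, with replicate 2 at the upper end, and all 10 were higher in tumors, where 27% of all genes were. Between MYCN and wild-type ganglia 0 of the 10 were past the threshold (0.936% of all genes), and 10 of 10 were higher without wild-type ganglia replicate 2 (3.46% of all genes higher). Between tumors and MYCN ganglia 1 of the 10 was higher (14% of all genes). There, 4 were higher without wild-type ganglia replicate 2 (17.9%) and 5 on the TPM scale (7.24%). Among MYCN ganglia, replicates 1, 3 and 4 had sums of 1274, 127 and 667 beside Mxd3 levels of 34.2, 5.50 and 20.3 TPM. In MYCN ganglia labelled heterozygous the sum was 96.2 and 269, beside 2.13 and 7.63 TPM of Mxd3. The part of the cell cycle in the Mxd3 level was not tested.

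**Figure D4:**
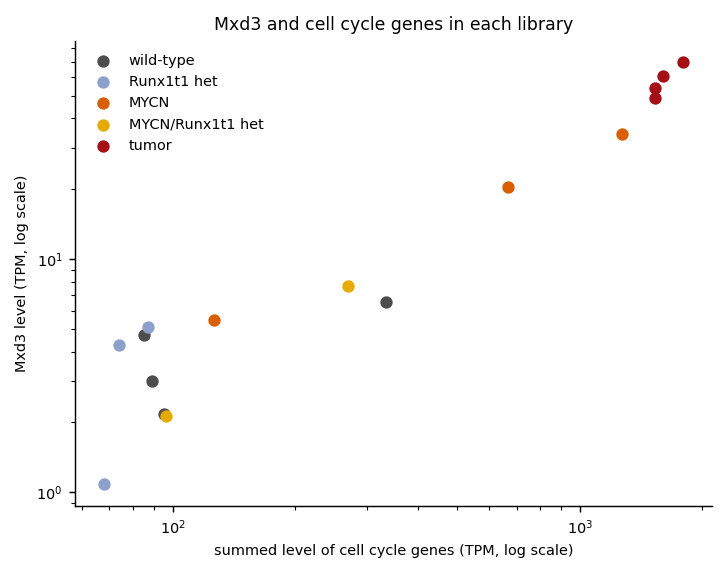
Mxd3 level (vertical axis, TPM, log scale) against the summed level of 10 cell cycle genes (horizontal axis, TPM, log scale) in each of the 16 libraries, colored by group. The 4 tumors lie at 48.8 to 69.9 TPM of Mxd3, and MYCN ganglia replicates 1 and 4, at 34.2 and 20.3 TPM, lie between them and the other ganglia, which had at most 7.63 TPM.

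Mxi1 (Mxd2), on chr19:53310518-53375810 (plus strand), had 26.8, 20.8, 29.1 and 28.6 TPM in wild-type ganglia and 49.2, 47.3, 46.3 and 55.3 TPM in tumors. The groups stood apart, with a log2 fold change of 1.34 (SE 0.190, adjusted p = 6.01e-05). Mxd4 (chr5:34173883-34187720, minus strand) had the highest mean TPM of the family in each of the 4 ganglion groups. On CPM, which does not correct for gene length, Mxi1 did. Mxd4 had 45.9, 119.6, 75.6 and 58.7 TPM in wild-type ganglia and 29.5, 18.2, 27.9 and 25.3 TPM in tumors. All tumors were below all wild-type ganglia, of which replicate 2 was the highest. Mxd4 was at −1.16 (SE 0.297, adjusted p = 0.00445), and at −0.78 (adjusted p = 0.0124) without wild-type ganglia replicate 2. In MYCN ganglia replicate 1, Mxi1 (49.9 TPM) was above Mxd4 (41.15 TPM). Mxd1, the founding family member, ranged from 8.26 to 19.5 TPM in wild-type ganglia and from 5.75 to 12.4 TPM in tumors. Its difference of −0.23 (adjusted p = 0.510) did not pass the threshold and turned to 0.12 without wild-type ganglia replicate 2. Mxd4 overlaps by 1001 bases with Gm42846, and Mxi1 by 201 bases with Gm10197 and by 5146 bases with AC133451.2, all on the opposite strand. Max overlaps by 1319 bases with Gm47218 and Mxd1 by 2364 bases with Gm44292, both on the same strand, where counting by strand could not separate the reads.

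The makeup of the Mxd family differed between tumors and wild-type ganglia, while the difference in its summed level depended on the scale. Mxd1, Mxd3, Mxd4 and Mxi1 together had 118 ± 35.4 TPM in wild-type ganglia and 141 ± 5.41 TPM in tumors (SD, n = 4 each), and the ranges, 84.0 to 166 and 135 to 148 TPM, overlapped. The overlap came from wild-type ganglia replicate 2, the library with immune markers. The other 3 had 84.0, 119 and 102 TPM (102 ± 17.5, SD), all below every tumor. On CPM the same sum was 111 ± 22.2 in wild-type ganglia and 207 ± 15.5 in tumors, from 90.3 to 141 and from 188 to 224, without overlap. Of the TPM sum, Mxd3 made up 3.48% ± 1.19 in wild-type ganglia and 41.3% ± 6.08 in tumors. Mxd4 made up 61.8% ± 7.62 and 17.9% ± 3.81 of it. Of the CPM sum, the shares were 1.69% ± 0.635 and 17.6% ± 3.19 for Mxd3. For Mxd4 they were 27.0% ± 7.23 and 6.73% ± 1.32. The share of Mxi1 was 24.2% ± 8.39 and 35.0% ± 1.63 on TPM. On CPM it was 50.4% ± 12.4 and 65.85% ± 2.2, the largest mean share of the family in both groups. CPM does not correct for gene length, so sums and shares over different genes on that scale also depend on length. In MYCN ganglia replicates 1, 3 and 4, the share of Mxd3 was 24.5%, 4.73% and 15.9% on TPM. On CPM it was 9.56%, 2.27% and 7.06%. Mycn and Myc together had 70.6 ± 12.6 TPM in wild-type ganglia and 19.5 ± 13.9 TPM in tumors, from 55.1 to 85.9 and from 11.1 to 40.3 TPM, without overlap. On CPM their ranges, 53.7 to 84.5 and 14.99 to 54.4, overlapped, since tumor replicate 1 stood above the lowest wild-type ganglion. The log2 ratio of the Myc pair to the Mxd family was −0.71 ± 0.57 in wild-type ganglia and −3.07 ± 0.87 in tumors, a difference of −2.36, which ran from −2.79 to −2.11 when single libraries were left out and was −2.53 on CPM. The ratio has no term for the human transgene, so it describes the rows of the mouse genes and not all Myc protein. Mnt and Mga together had 53.8 ± 3.55 TPM in wild-type ganglia and 73.3 ± 7.78 TPM in tumors.

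**Figure D5:**
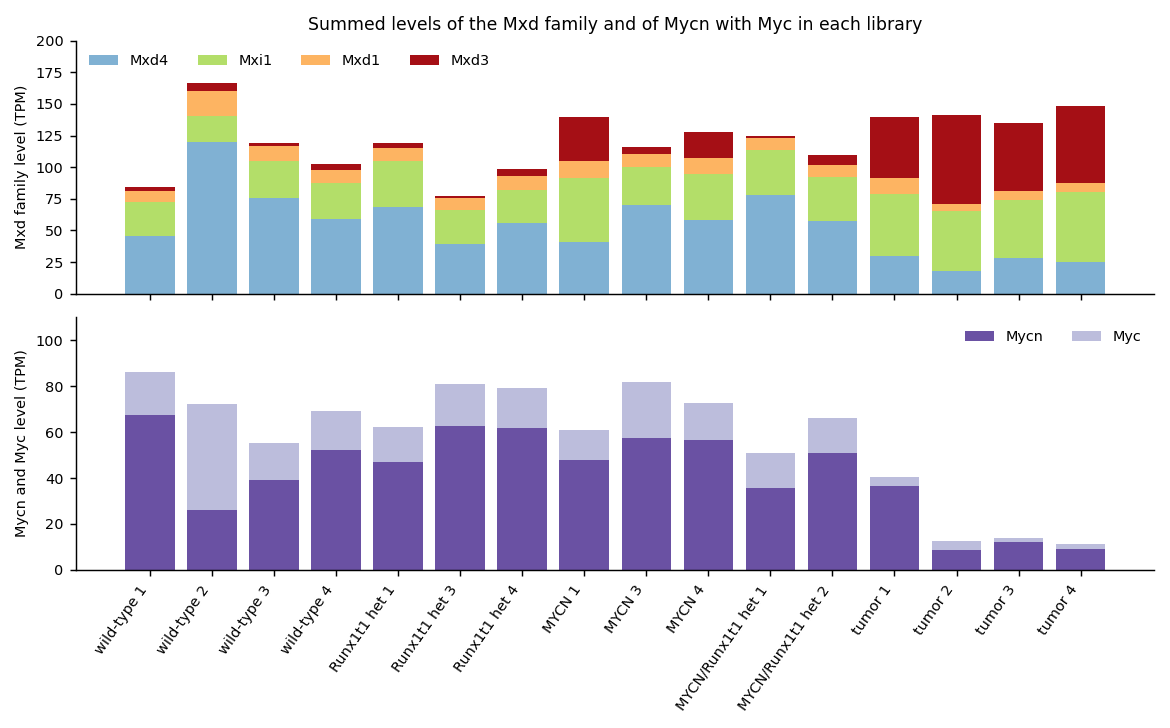
Stacked levels of the 4 Mxd family genes (upper panel, TPM) and of Mycn with Myc (lower panel, TPM) in each of the 16 libraries, on linear axes from 0. Mxd3 takes 41.3% ± 6.08 of the Mxd sum in tumors and 3.48% ± 1.19 in wild-type ganglia (SD, n = 4), and the Mycn and Myc sum is 11.1 to 40.3 TPM in tumors and 55.1 to 85.9 TPM in wild-type ganglia.

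Tumors were also compared with MYCN ganglia, which share their genotype. Past the threshold were 7 of 10 genes, where 34.5% of all genes were (14% higher and 20.5% lower), and 8 of 10 did not overlap in CPM, against 39.7% of all genes. Myc was at −2.25 (adjusted p = 0.00111) and Mycn at −1.31 (adjusted p = 0.0309), both lower in tumors. Mxd3 was at 1.91 (SE 0.654, adjusted p = 0.0365), Mxi1 at 0.71 (0.0167), Mga at 0.63 (0.0288), Max at 0.51 (0.00738) and Mnt at 0.54 (0.0192), with adjusted p in parentheses after Mxd3. Mxd4 was at −0.76 (adjusted p = 0.0755), Mxd1 at −0.25 (0.560) and Mlx at 0.08 (0.730). The TPM scale gave 4 calls, Mycn (−1.87), Myc (−2.29), Mxd3 (1.80) and Mxd4 (−1.12), where 37.2% of all genes were called, 7.24% higher and 30% lower, so that Max, Mnt, Mga and Mxi1 were called on counts only. The number called on counts was 2 without MYCN ganglia replicate 3 and without replicate 4, where the share of all genes called fell to 21.3% and 24.4%. It was 4 without tumor replicate 2 (29.6% of all genes) and 3 without tumor replicate 4 (28.8%). Myc was past the threshold in 24 of 24 alternatives, with log2 fold changes from −2.54 to −1.99. Mycn passed in 18 of 24, from −2.04 to −1.10. Its call was lost without MYCN ganglia replicate 3 (adjusted p = 0.0805) or 4 (0.0720). It was also lost without tumor replicate 2 (0.0772), 3 (0.0738) or 4 (0.0792) and with only these groups fitted (0.0872). Mxd3 passed in 20 of 24, from 1.45 (without MYCN ganglia replicate 3, adjusted p = 0.123) to 2.64. Max passed in 23, Mxi1 in 20, Mnt in 19 and Mga in 16 of the 24. With the replicate number as a block, 6 genes were called (30.2% of all genes), and Mga was not (adjusted p = 0.0617). Among libraries above 20000000 counts (4 tumors and 2 MYCN ganglia) the difference in mean log2(CPM + 1) was −2.12 for Myc (−1.99 over all), −1.53 for Mycn (−1.52) and 2.63 for Mxd3 (2.08), and MYCN ganglia replicate 1, with the most Mxd3 among ganglia, was the shallow library.

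The transgene effect in ganglia with wild-type Runx1t1 was given by MYCN against wild-type ganglia. None of the 10 genes was past the threshold in edgeR, where 0.936% of all genes were. Of the 10, 3 had an unadjusted p under 0.05 (19.8% of all genes). DESeq2, which called 7.73% of all genes, called 2, Mxd3 (adjusted p = 0.00739) and Mxi1 (0.0395). In data simulated for this comparison with 200 changed genes, DESeq2 gave 57 false calls and edgeR 5. MYCN ganglia had 34.2, 5.50 and 20.3 TPM of Mxd3 against 2.16 to 6.52 TPM in wild-type ganglia, so that 2 of 3 MYCN ganglia were above all wild-type ganglia and replicate 3 was among them. The log2 fold change of Mxd3 was 2.35 (SE 0.641, adjusted p = 0.0837). It was 2.81 (adjusted p = 0.00960) without MYCN ganglia replicate 3, 2.69 (0.0490) without wild-type ganglia replicate 2 and 1.63 (0.561) without MYCN ganglia replicate 1. Mxi1 had 49.9, 29.9 and 36.8 TPM in MYCN ganglia, all above the 29.1 TPM of the highest wild-type ganglion, and was at 0.63 (SE 0.201, adjusted p = 0.120), or 0.82 (0.0166) without MYCN ganglia replicate 3. Mga had 40.6, 25.5 and 32.4 TPM and was at 0.45 (SE 0.200, adjusted p = 0.232). In CPM, Mxi1 (higher) and Mlx (lower) did not overlap between the groups, 2 of 10 genes against 9.17% of all genes. Within libraries above 20000000 counts (2 against 2), the difference in mean log2(CPM + 1) was 1.27 for Mxd3 and 0.21 for Mxi1, and under it (1 against 2) 2.56 and 1.21. Mycn (0.26), Myc (−0.45), Max (0.13), Mxd1 (0.02), Mxd4 (−0.40), Mnt (0.10) and Mlx (−0.29) had adjusted p from 0.366 to 0.985.

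The Runx1t1 genotype was compared with and without the transgene. Between MYCN ganglia labelled heterozygous and MYCN ganglia, none of the 10 genes was past the threshold in edgeR (0.012% of all genes), 1 had an unadjusted p under 0.05 (12.6% of all genes) and DESeq2 called 0 (1.63% of all genes). That gene was Mxd3, with 2.13 and 7.63 TPM in the labelled heterozygotes and a log2 fold change of −2.17 (SE 0.824, adjusted p = 0.350). Its ranges overlapped, since MYCN ganglia replicate 3 had 5.50 TPM, and in CPM 2 of the 10 genes, Mycn and Mxd1, did not overlap (30.5% of all genes). For MYCN ganglia labelled heterozygous against their transgene-free counterparts, for transgene-free ganglia labelled heterozygous against wild-type ganglia and for the interaction of transgene and genotype, edgeR called 0 of the 10 genes (0% of all genes in each), 0 had an unadjusted p under 0.05, and DESeq2 called 0. Of all 16665 genes, 242, 687 and 937 had an unadjusted p under 0.05 in edgeR in these comparisons, in that order, and DESeq2 called 0.078%, 0.03% and 0.186%. In CPM, Myc, Mnt and Mga did not overlap in the first of these comparisons (3 of 10 genes, 22.5% of all genes) and 0 of 10 in the second (2.9% of all genes). Mxd3 was at 0.46 (SE 0.782) in the first, −0.28 (SE 0.658) in the second and −1.89 (SE 1.03, adjusted p = 0.845) in the interaction. Max, the shared partner, was at −0.28 (SE 0.152, adjusted p = 0.462) between MYCN ganglia labelled heterozygous and MYCN ganglia, with 50.5 and 58.3 TPM against 63.6, 56.5 and 62.8 TPM. Both MYCN ganglia labelled heterozygous lay under 20000000 counts, as did 1 of the 3 MYCN ganglia. Among those 3 shallow libraries (2 against 1), the difference in mean log2(CPM + 1) was −2.68 for Mxd3 (−1.59 over all) and −0.46 for Max (−0.27 over all), with no replicate on one side.

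Genes with the most similar pattern were sought for the 4 members with the widest range of group means, by the root mean square difference of centred log2(CPM + 1) over the 16 libraries among 14686 genes. For Mxd3 they were Ung, a uracil glycosylase of DNA repair (0.277), Ska3, a kinetochore protein (0.299), and Ccnf, a cyclin (0.303). For Myc they were Carns1 (0.330), the DNA polymerase subunit Pold4 (0.332) and Plekhg2 (0.335). For Mycn they were Fam131b (0.225), Shd (0.237) and the calcium channel subunit Cacng2 (0.269). Mxi1 was closest to Kansl2 (0.126), the centriolar satellite gene Pcm1 (0.128) and Hdac2 (0.137), the histone deacetylase of the Sin3 complex.

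Partner and target genes of the network were counted between tumors and wild-type ganglia by lists chosen with earlier results of these data known. Of all genes, 27% were higher and 30.7% lower on counts, and 17.7% and 39.6% on the TPM scale. Of 13 genes of the Sin3 corepressor, 8 were higher and 0 lower (median log2 fold change 0.86, all genes −0.11), with the histone-binding subunits Rbbp4 at 1.37 (adjusted p = 1.09e-05) and Rbbp7 at 0.86, Hdac2 at 1.34 and Arid4b at 0.89. On the TPM scale 7 were higher and 1 lower. Of 14 Myc coactivators and partners, 11 were higher and 0 lower (median 0.98, and 9 and 1 on TPM). They included the helicases Ruvbl1 at 2.00 and Ruvbl2 at 2.51, the Myc partner Zbtb17 (Miz-1) at 1.51 and the acetyltransferase Kat2a at 0.85. Of 12 genes that set the stability of Myc proteins, 9 were higher and 0 lower (median 0.81; 6 and 1 on TPM), among them the ubiquitin ligase subunits Skp2 at 3.26 and Fbxw7 at 1.28, the deubiquitinase Usp36 at 1.64 and the kinase Aurka at 4.36, which is also a mitotic gene. Of 10 genes of the Mga complex, 6 were higher and 0 lower (median 0.78, and 4 and 2 on TPM). Among them were L3mbtl2 at 1.35, Cbx3 at 2.10, the E2F partner Tfdp1 at 2.52 and the ligase Rnf2 at 1.00. Without tumor replicate 3, the library with liver markers, 4 were higher, where 25.5% of all genes were.

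Of 26 textbook Myc targets, 25 were higher in tumors than in wild-type ganglia and 1 was lower, where 27% and 30.7% of all genes were (median 2.25; 23 and 1 on TPM, where 17.7% and 39.6% were), with the nucleolar genes Nop58 at 2.79 and Ncl at 2.30, the spermidine synthase Srm at 2.52 and the chaperonin Hspd1 at 1.69. The lower one was the cyclin Ccnd2, at −2.42 with groups that overlapped. Among 5 further network genes tested, Usf1, an E-box factor outside the Max group, was at 0.54 (adjusted p = 0.0152) and Mycl, the third Myc gene, at 2.03 (SE 0.772, adjusted p = 0.0365) with groups that overlapped, while Mlxip (0.58), Usf2 (0.31) and Mlxipl (−0.54) did not pass the threshold. Between 1 and 4 of these 5 were higher across the alternatives, where 17.7% to 31.7% of all genes were. Without wild-type ganglia replicate 2, 4 were higher (29.1% of all genes), and without tumor replicate 3, 1 was lower (28.8% of all genes). In MYCN against wild-type ganglia, edgeR called 1 gene of these 6 lists, Cbx3 at 1.19 (SE 0.243, adjusted p = 0.0411), where 0.936% of all genes were called. Cbx3 was past the threshold in 8 of 24 alternatives, with adjusted p from 0.000318 to 0.378, and was not with the replicate block (0.0736), on the TPM scale (0.0849) or without tumor replicate 3 (0.0574). EdgeR called 0 of all genes with the block (2865 at an unadjusted p under 0.05) and in a fit restricted to these 2 groups (1789), while DESeq2 over all groups called 7.73% of all genes. In this comparison the median of the 26 Myc targets was 0.72 (all genes −0.04) with 0 past the threshold, and 6 were higher without wild-type ganglia replicate 2, where 3.46% of all genes were. Between tumors and MYCN ganglia, 7 Sin3 genes, 9 coactivators or partners, 6 stability genes and 3 Mga complex genes were higher. In addition, 22 Myc targets and 0 further network genes were higher, and 0 genes of the 6 lists were lower. Of all genes, 14% were higher and 20.5% lower there. On the TPM scale 4 Sin3 genes, 7 coactivators or partners, 5 stability genes, 3 Mga complex genes, 18 Myc targets and 0 further network genes were higher. On that scale 1 stability gene and 1 Mga complex gene were lower, and of all genes 7.24% were higher and 30% lower.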

How the data were processed

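RNA-Seq libraries were made with a stranded total RNA kit, although the labels give polyA RNA. The authors mapped the reads to mm10 (STAR), sorted them (SAMtools) and quantified genes by RSEM. The deposited files give expected counts, not normalized, and TPM, for 24411 genes. Annotation and strand setting are not given in the sources used here. Hom in a header was read as wild-type Runx1t1, from the sample labels. Members and gene lists were chosen with earlier results of these data known: all 10 members, up to 4 genes per list with the smallest adjusted p, and the 3 nearest genes in pattern for 4 members are named; Ddx1, Fam49a, Nbas, Ccnd2, Psmc3ip, Prelid1 and the remaining further network genes were added after their values were seen.

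Expected counts were rounded. In R 4.3.3, edgeR 4.0.16 kept 16665 genes (filterByExpr) and fitted 1 model to all 5 groups (TMM, quasi-likelihood, 7 contrasts, Benjamini-Hochberg, threshold 0.05). SE is the absolute log2 fold change over the square root of F. Depth and the 2 to 4 libraries per group limit precision. Alternatives were upper-quartile normalization, DESeq2 1.42.0, other count filters, a replicate block, a depth term, other reference samples and each library left out; limma 3.58.1 on log2(TPM + 1) and list counts without 2 libraries were added after seeing the data. Same-numbered wild-type ganglia and tumors deviated together in all 4 pairs (r from 0.123 to 0.331), and other groups did not in every pair. Scripts were tested on simulated data. Gene positions are from GENCODE vM21 (GRCm38), promoters from RefSeq (GRCm38.p6).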

Additional observations from a re-analysis of the deposited data

Results flagged for a closer look

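Mycn in tumor replicate 1 had 49.7 CPM, whereas the other 3 tumors had 12.4 to 15.7 CPM, a gap that is 0.912 of the range of the group. Myc in wild-type ganglia replicate 2 had 46.0 CPM, whereas the other 3 wild-type ganglia had 14.5 to 16.8 CPM, a gap of 0.927 of the range. Both are libraries that stand apart from their group in another measure as well, the first by 8767 TPM of sympathetic neuron markers and the second by 923 TPM of lymphocyte markers. In all, 20 groups of 4 libraries were tested in this way, of which chance would pick out about 1, and 2 were found.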

How the results depend on the processing

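Between tumors and wild-type ganglia, 8 members were called in the main analysis (57.7% of all genes) and with the replicate block (55.8%), and Myc, Mxd3, Mxd4, Mxi1 and Mga were past the threshold in 25 of 25 alternatives. Max and Mnt lost their call only on the TPM scale, where Mlx gained one. Between MYCN and wild-type ganglia, 0 members were called (0.936% of all genes), 2 with DESeq2 (7.73%), 0 with the replicate block (0%) and 0 to 2 with single libraries left out (2 without MYCN ganglia replicate 3, where 10.9% of all genes were called). Between tumors and MYCN ganglia, 7 were called (34.5% of all genes), 3 with only these groups in the fit (27.7%), 4 on the TPM scale (37.2%), 6 with the replicate block (30.2%) and 2 to 8 with single libraries left out (21.3% without MYCN ganglia replicate 3, 40.4% without wild-type ganglia replicate 2). The cause of these shifts was not tested, except that fewer samples were fitted where groups or libraries were left out. Differences that changed sign were all outside the threshold in both settings. With single libraries left out, Mxd1 ran from −0.52 to 0.12 between tumors and wild-type ganglia, turning without wild-type ganglia replicate 2, and ran from −0.16 to 0.37 between MYCN and wild-type ganglia, with −0.14 without wild-type ganglia replicate 1, −0.0081 without replicate 3 and −0.09 without replicate 4. In the latter comparison Myc ran from −0.71 to 0.13, turning without wild-type ganglia replicate 2, and Mnt from −0.050 to 0.17, turning without MYCN ganglia replicate 1. Mlx turned to −0.29 between tumors and MYCN ganglia on the TPM scale. Between transgenic and transgene-free ganglia labelled heterozygous, Max ran from −0.20 to 0.071, turning without replicate 1 of the transgenic group, and Mxd3 from −0.76 to 1.14, turning without its replicate 2, and was at −0.20 with the replicate block and −0.13 with a depth term. Between transgene-free ganglia labelled heterozygous and wild-type ganglia, Mxd3 ran from −0.72 to 0.17, turning without heterozygous replicate 3 (0.17) and wild-type ganglia replicate 2 (0.050).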
